A study of Mus musculus with 32 samples.

Results

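In B6 testis, 4745 of 10835 B6-specific H3K4me3 intervals (43.8%) overlapped neither the centre of a meiotic break site nor a PRDM9 peak, and these intervals are described here. They were chosen on measured positions: an interval of the B6-specific list was kept when it shared not 1 bp with the central 400 bp of any B6 DMC1 interval and not 1 bp with any B6 PRDM9 interval. They are called B6 H3K4me3-only intervals below. The 6090 other B6-specific intervals are called B6 hotspot intervals: 6060 of them reached a DMC1 centre, 1712 overlapped a PRDM9 peak, and 30 had the PRDM9 peak alone. The same rule applied to the RJ2 lists left 11235 of 24185 RJ2-specific intervals (46.5%), the RJ2 H3K4me3-only intervals. A further 41014 H3K4me3 intervals were common to both strains, and all 9 lists used held 122081 intervals. Shares were computed on chromosomes 1 to 19, X and Y, which left out 1 RJ2 H3K4me3-only and 3 common intervals.

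The study mapped PRDM9, H3K4me3 and DMC1 by ChIP-seq in mouse testis, in order to compare the binding sites of PRDM9 variants with the sites where recombination starts. B6 mice (C57BL/6JOlaHsd) carry the Prdm9 allele Dom2. RJ2 mice, B10.MOLSGR(A)-(D17Mit58-D17Jcs11)/Bdm, carry the allele Cst on a segment of chromosome 17 in a C57BL/10 background, so the PRDM9 variant and the rest of the strain difference cannot be told apart in this comparison. H3K4me3 was measured in elutriated, pachytene-enriched testis cells of adults with 1 library per strain, DMC1 in whole testis at 5 weeks with 2 libraries per strain, and PRDM9 in whole testis at 13 days with 2 libraries per strain. PRDM9 peaks from testis of 2 mutants, both at 13 days, were also used. These were Spo11tm1M mice (Spo11KO, 2 libraries), which make no meiotic breaks, and B6;129P2-Prdm9tm1Ymat/J mice (Prdm9KO, 1 library). The lists give positions only, with no score or read count, so the depth behind an interval is unknown. A missing overlap says that the list holds no peak there, not that the protein was absent. Some PRDM9 peaks called in B6 are not in the list, since the authors removed those seen in Prdm9KO mice or shared with RJ2. The 95% intervals given with shares (exact Clopper-Pearson) and with differences of shares (Newcombe) cover counting error only, and intervals of 1 library are not replicates.

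PRDM9 is a zinc finger protein of early meiosis that binds DNA through its finger array and trimethylates lysine 4 of histone H3 on the nucleosomes beside its binding site. SPO11 then makes double-strand breaks at a fraction of these sites, and the strand exchange protein DMC1 coats the resected ends. H3K4me3 also marks gene promoters in most cell types, where it is set by other methyltransferases and does not depend on PRDM9.

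Sequences of 2 kinds show the range of the B6 H3K4me3-only intervals. The first kind is the 6 intervals with the highest score for a 20-position matrix of PRDM9Dom2, learned from 902 B6 PRDM9 peaks at DMC1 centres on odd-numbered chromosomes. Its starting word, GCAGCACC, was held by 11.3% of those peak centres and by 0.665% of the windows moved 10 kb away. Each line gives 80 bases of the mm9 reference, read on the strand of the match, with the 20 matched bases in capitals.

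Etnk1 intron, chr6:143128225-143128304, + strand, score 23.4: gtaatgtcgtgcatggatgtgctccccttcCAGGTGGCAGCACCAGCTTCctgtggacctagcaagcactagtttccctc
Trpc7 intron, chr13:56896209-56896288, + strand, score 22.9: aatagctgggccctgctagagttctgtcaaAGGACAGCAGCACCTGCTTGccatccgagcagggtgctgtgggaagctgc
Intergenic near Umodl1, chr17:31083189-31083268, - strand, score 21.8: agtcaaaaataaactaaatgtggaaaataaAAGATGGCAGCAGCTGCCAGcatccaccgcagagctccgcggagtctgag
Intergenic near Stmn3, chr2:181036876-181036955, - strand, score 21.4: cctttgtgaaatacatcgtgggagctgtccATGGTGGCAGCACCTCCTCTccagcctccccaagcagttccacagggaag
Intergenic near Rnaseh2c, chr19:5592636-5592715, + strand, score 21.1: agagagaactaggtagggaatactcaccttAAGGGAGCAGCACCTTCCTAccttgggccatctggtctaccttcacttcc
Kri1 intron, chr9:21088255-21088334, + strand, score 21.0: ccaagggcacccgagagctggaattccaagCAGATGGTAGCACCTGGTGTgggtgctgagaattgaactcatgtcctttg

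These 6 intervals were 354 to 758 bp wide. The Trpc7 interval was the only one of the 6 that touched the outer part of a B6 DMC1 interval, and the others lay 11832 to 75979 bp from the nearest one. The match lay 4 bp from the interval centre at Trpc7, 5 bp from it near Rnaseh2c and 187 bp from it near Umodl1. The second kind is the 2 widest intervals that hold an annotated transcription start and have no match to the matrix in their central 400 bp. They are shown by the 150 bases at the interval centre, on the + strand with CG pairs in capitals. These centres lie 378 bp and 1108 bp from the start.

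Centre of the Gm15904 interval, chr4:128612796-128612945: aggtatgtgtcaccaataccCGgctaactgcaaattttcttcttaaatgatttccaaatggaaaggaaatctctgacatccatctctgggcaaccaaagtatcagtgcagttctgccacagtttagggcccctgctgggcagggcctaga
Centre of the 4933427I22Rik interval, chr4:139498251-139498400: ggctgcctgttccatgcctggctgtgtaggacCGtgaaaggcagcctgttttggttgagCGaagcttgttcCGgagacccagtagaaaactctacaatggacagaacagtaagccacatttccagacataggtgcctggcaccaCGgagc

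The 150 bases of the Gm15904 interval held 1 CG pair and those of the 4933427I22Rik interval held 4, and the intervals, 6524 and 4524 bp wide, both lie on chromosome 4.

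The B6 H3K4me3-only intervals were narrow. Their median width was 529 bp (quartiles 434 and 685 bp), against 920.5 bp (700 and 1183 bp) in B6 hotspot intervals, 531 bp in RJ2 H3K4me3-only intervals and 1097 bp in common intervals. The narrowest was 3 bp and the widest 6621 bp. Of the 4745, 16 were under 100 bp, 789 under 400 bp and 314 (6.62%) over 1000 bp, while 2502 hotspot intervals (41.1%) were over 1000 bp. They covered 2.89 Mb, against 5.88 Mb for the hotspot intervals. A wide interval meets a DMC1 centre more easily than a narrow one, so width is bound to the rule and is given with no test. When all B6-specific intervals were divided into 5 groups of increasing width, the H3K4me3-only share was 81.9%, 67.9%, 40.5%, 18.3% and 10.2%.

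**Figure D1:**
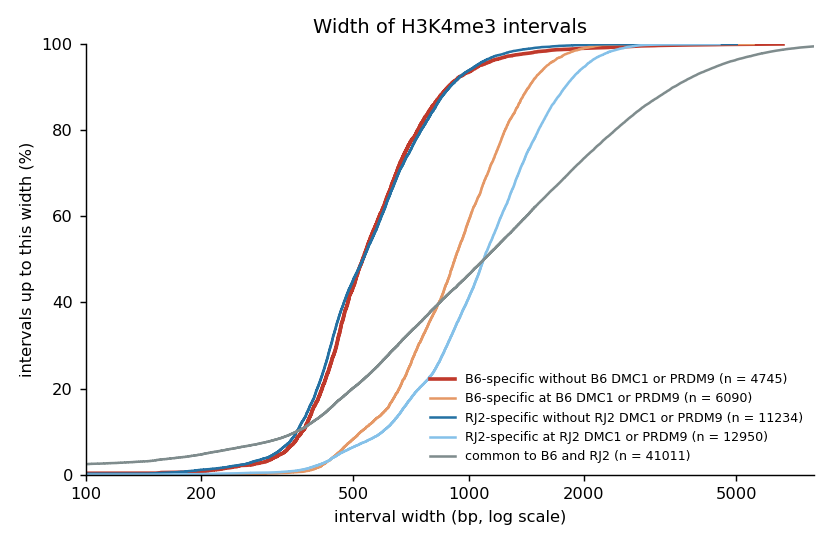
Cumulative share of intervals (y axis, percent) up to a given width (x axis, bp on a log scale, from 100 bp) for the 5 sets of H3K4me3 intervals. The curves of the B6 and RJ2 H3K4me3-only intervals lie together, with medians of 529 and 531 bp, to the left of the hotspot and common intervals.

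The edge of the rule was sharp in position but thin in number. Just inside it, chr8:4099656-4100042 lay 2 bp from the central 400 bp of a DMC1 interval, and chr4:49853256-49854049 and chr8:59455557-59456092 lay 3 bp from one. Just outside it, chr10:126690292-126690715 and chr2:131251785-131252279 overlapped the central part by 1 bp and chr2:19991187-19991608 by 2 bp. In all, 42 H3K4me3-only intervals lay within 100 bp of a DMC1 centre region and 97 hotspot intervals without a PRDM9 peak overlapped one by at most 100 bp. Counting the whole DMC1 interval, 121 H3K4me3-only intervals (2.55%) touched one, and 38 lay within 500 bp of a B6 PRDM9 peak. These counts describe the choice of the intervals and are not a result about them.

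The nearest B6 DMC1 interval lay at a median distance of 54188 bp (quartiles 21209 and 117037 bp). This was close to the median of RJ2 H3K4me3-only intervals, 54196.5 bp, and of common intervals, 50134 bp. Within 5 kb of a B6 DMC1 interval lay 413 (8.70%). The rule had removed the intervals at DMC1 centres, so the distance and this share were shaped by the choice and are given as a description. The nearest RJ2 DMC1 interval lay at a median of 53514 bp, and 18 H3K4me3-only intervals (0.379%) overlapped one. So did 40 hotspot intervals (0.657%), a difference of -0.277 points (-0.552 to 0.00270), and 826 common intervals (2.01%).

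PRDM9 peaks of Spo11KO mice give a second list for the Dom2 variant, which is not independent of the lists that chose the intervals. No B6 H3K4me3-only interval overlapped any of the 1070 Spo11KO PRDM9 peaks (0 of 4745, with an exact upper limit of 0.0777%, or 0.0632% if the limit is set at 3 counts), whereas 928 hotspot intervals (15.2%) did. Over all B6-specific intervals the share was 8.56%. Most Spo11KO peaks, 923, overlapped a B6 PRDM9 peak that the rule had already used. Of the remaining 147, 71 lay at a B6 DMC1 centre, which the rule also excluded, 59 fell in a hotspot interval and 0 in an H3K4me3-only interval. The count of 0 was thus largely set by the choice of the intervals and is given as a description. Among the 4378 hotspot intervals that had DMC1 and no B6 PRDM9 peak, 60 (1.37%) overlapped a Spo11KO peak. With a margin of 500 bp around each interval, 18 H3K4me3-only intervals reached a Spo11KO peak.

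PRDM9 peaks called in RJ2 and Prdm9KO mice overlapped few of the intervals. Peaks of Prdm9KO testis mark signal of the antibody or chromatin without PRDM9, and the authors called them at a relaxed threshold. They overlapped 12 H3K4me3-only intervals (0.253%), 14 hotspot intervals (0.230%) and 0.24% of all B6-specific intervals. The first 2 shares differed by 0.0230 points (interval -0.167 to 0.233). The authors had removed B6 PRDM9 peaks that overlapped a Prdm9KO peak, so such peaks could not place an interval among the hotspot intervals. This difference is thus given as a description. Of the 12 H3K4me3-only intervals, 3 lay within 1 kb of a start. Of these, 1 held the start of Mapk6, an atypical MAP kinase. The others lay 394 bp from the start of Gm15173 and 710 bp from the start of AC157561.1. RJ2 PRDM9 peaks overlapped 18 H3K4me3-only intervals (0.379%) and 6 hotspot intervals (0.0985%), a difference of 0.281 points (0.0994 to 0.507), and 0.222% of all B6-specific intervals. They overlapped 762 common intervals (1.86%), a difference of -1.48 points (-1.67 to -1.23). The authors had removed peaks shared by B6 and RJ2 from both PRDM9 lists. As 1712 hotspot intervals lay at a B6 PRDM9 peak, their low share was partly set in advance. The difference between H3K4me3-only and hotspot intervals for RJ2 peaks is thus also given as a description. Of the 18 H3K4me3-only intervals, 3 held a start, of Diap2, which codes for a formin, of Bbx, an HMG-box protein, and of Helb, DNA helicase B. These names were chosen after the overlaps were seen.

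A match to the Dom2 matrix was more frequent in the H3K4me3-only intervals than in RJ2 H3K4me3-only and common intervals, and far less frequent than in hotspot intervals. A match means a score that 5% of the 400-bp windows moved by 10 kb from all B6-specific intervals reached. Over all chromosomes, 418 of 4745 intervals (8.81%, interval 8.02 to 9.65) held a match in their central 400 bp, and 5.23% of their own moved windows did. On the chromosomes on which the matrix had not been learned, the share was 224 of 2382 (9.40%), against 1291 of 3052 hotspot intervals (42.3%), 250 of 5316 RJ2 H3K4me3-only intervals (4.70%) and 1259 of 19688 common intervals (6.39%). The difference from the RJ2 set was 4.70 points (3.44 to 6.05), from the common set 3.01 points (1.85 to 4.29) and from the hotspot set -32.9 points (-35.0 to -30.8).

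A stricter threshold is the score that 1% of moved windows reach. On the chromosomes not learned on, it was passed by 73 of 2382 H3K4me3-only intervals (3.06%) and 572 hotspot intervals (18.7%). There, 48 RJ2 H3K4me3-only intervals (0.903%) and 245 common intervals (1.24%) passed it. Over all chromosomes, 125 of 4745 H3K4me3-only intervals (2.63%) did. The word GCAGCACC was searched on both strands in the central 400 bp, over all chromosomes. It was present in 119 H3K4me3-only intervals (2.51%), in 1.69% of their moved windows, in 6.45% of hotspot intervals and in 1.23% of RJ2 H3K4me3-only intervals. On the chromosomes not learned on, hotspot intervals with DMC1 and no B6 PRDM9 peak held a Dom2 match in 38.9% of cases (interval 36.8 to 41.0). The lower share of H3K4me3-only intervals was thus also seen against break sites where the list held no B6 PRDM9 peak.

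Base composition moved with the match. Median GC of the central 200 bp was 47% in the H3K4me3-only intervals, 42.5% in hotspot intervals, 43% in RJ2 H3K4me3-only intervals and 47% in common intervals. Shares by GC of the central 400 bp were taken on the chromosomes not learned on. Under 45%, 6.36% of H3K4me3-only, 2.69% of RJ2 H3K4me3-only and 3.54% of common intervals held a match. From 45% to 55%, the shares were 11.6%, 6.79% and 7.41%. At 55% and above, 11.6% of the H3K4me3-only, 12.2% of the RJ2 H3K4me3-only and 10.8% of the common intervals held one. The difference there was -0.607 points from the RJ2 set (-5.68 to 4.39) and 0.748 points from the common set (-2.46 to 4.75). Over all chromosomes, 14.3% of moved windows in this range held one. The excess over the other sets was thus measured below 55% GC, in both ranges with intervals of the difference above 0, and was not detectable above it. The same matrix read backwards, which keeps its base composition, matched 5.54% of H3K4me3-only and 5.52% of hotspot intervals, 4.63% of RJ2 H3K4me3-only intervals, 6.20% of common intervals and 5.26% of moved windows. With the backwards matrix the H3K4me3-only intervals also exceeded the RJ2 set, by 0.914 points (0.177 to 1.70), against 4.18 points (3.31 to 5.10) with the matrix itself, both over all chromosomes.

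Matches lay near the centre less often than in hotspot intervals. Positions were read on the chromosomes not learned on. In the central 100-bp bins, 2.69% and 2.35% of H3K4me3-only intervals held a match, against 14.1% and 16.4% of hotspot intervals and 1.15% and 1.20% of RJ2 H3K4me3-only intervals. Of the 224 matches in H3K4me3-only intervals, 114 (50.9%) lay within 100 bp of the centre, against 890 of 1291 (68.9%) in hotspot intervals, a difference of -18.0 points (-25.0 to -11.1). In moved windows, counted over all chromosomes, 248 of 448 matches (55.4%) did. The 418 intervals with a match had a median width of 575 bp, the others 526 bp.

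**Figure D2:**
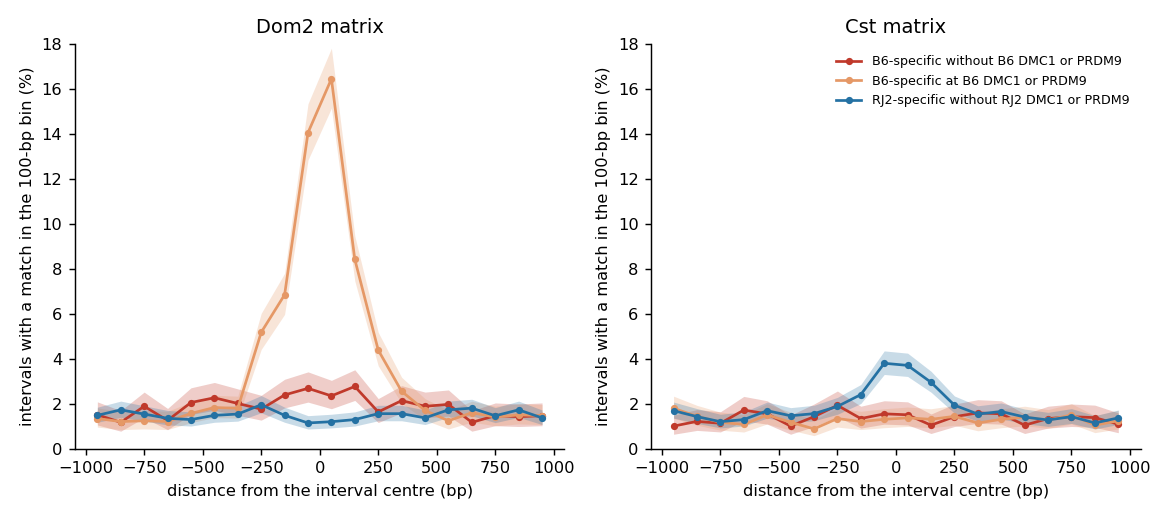
Share of intervals (y axis, percent) with a match to the Dom2 matrix (left) or the Cst matrix (right) in each 100-bp bin by distance from the interval centre (x axis, bp), on chromosomes not used for learning, with bands for 95% exact intervals. The B6 hotspot intervals peak at 16.4% in the Dom2 panel, the B6 H3K4me3-only intervals stay between 1.18% and 2.77%, and the RJ2 H3K4me3-only intervals rise above the others at the centre of the Cst panel.

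The reverse comparison used a matrix of PRDM9Cst, the RJ2 variant, learned in the same way from 3518 RJ2 peaks. It matched 245 B6 H3K4me3-only intervals (5.16%), 4.81% of B6 hotspot intervals, 5.35% of common intervals and 5.25% of moved windows, and these differences were within counting error. RJ2 H3K4me3-only intervals held a Cst match in 11.8% of cases on chromosomes not learned on, and RJ2 hotspot intervals in 34.6%. The B6 set minus the RJ2 set was thus 4.70 points for the Dom2 matrix and -6.86 points for the Cst matrix (-8.06 to -5.59).

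Promoters formed a larger share of the H3K4me3-only intervals than of the hotspot intervals. The centre lay within 1 kb of an annotated transcription start in 865 (18.2%, interval 17.1 to 19.4), against 240 hotspot intervals (3.94%), 1483 RJ2 H3K4me3-only intervals (13.2%) and 14378 common intervals (35.1%). Over all B6-specific intervals the share was 10.2%. The difference was 14.3 points from hotspot intervals (13.1 to 15.5), 5.03 points from the RJ2 set (3.78 to 6.31) and -16.8 points from common intervals (-18.0 to -15.6). A further 1548 (32.6%) were centred in introns, 210 (4.43%) in exons and 2122 (44.7%) between genes, while 48.4% of hotspot intervals were centred in introns.

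CpG-rich centres followed the same order. Centres were called CpG-rich when GC in the middle 200 bp reached 55% and observed over expected CpG reached 0.65. By this measure 210 H3K4me3-only intervals (4.43%) were CpG-rich, against 4 of the 6090 hotspot intervals (0.0657%), 2.13% of RJ2 H3K4me3-only and 7.18% of common intervals. The difference from hotspot intervals was 4.36 points (3.80 to 4.98). Of the intervals within 1 kb of a start, 17.2% had a CpG-rich centre. The narrowest intervals lay at starts most often: the share within 1 kb of a start was 23.4% in the narrowest of the 5 width groups and 13.1% in the widest. In the hotspot intervals of the same groups it was 4.56% and 3.65%.

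**Figure D3:**
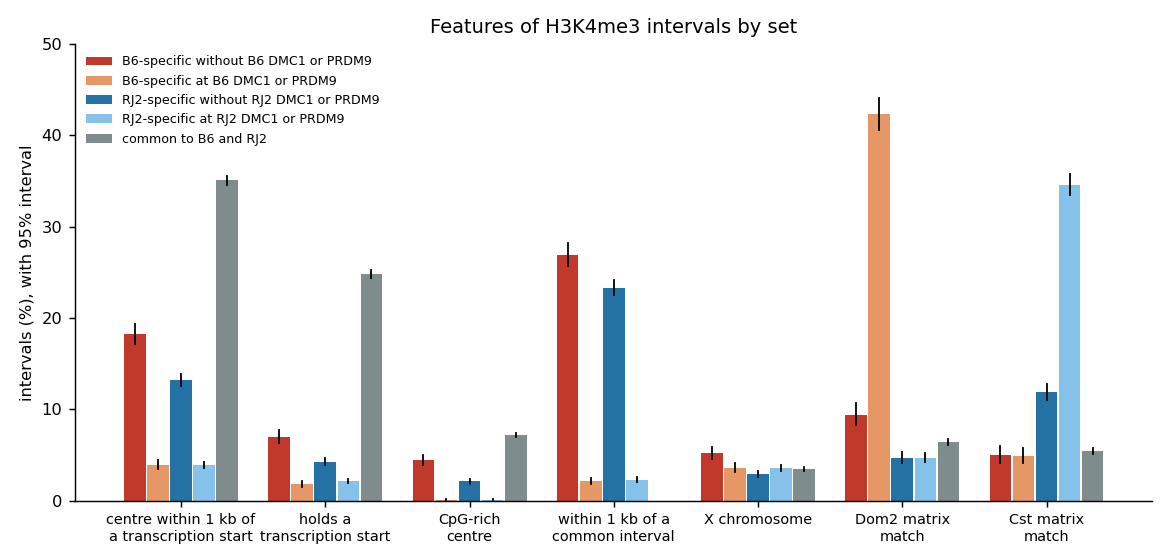
Share of intervals (y axis, percent) with each of 7 features, for the 5 sets of H3K4me3 intervals; bars are shares and lines their 95% exact intervals. The B6 H3K4me3-only intervals stand between the hotspot and the common intervals for starts (18.2%) and CpG-rich centres (4.43%), and above the RJ2 H3K4me3-only intervals for the Dom2 match (9.40% against 4.70%); closeness to a common interval is not defined for the common set.

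In all, 333 H3K4me3-only intervals (7.02%) held a transcription start itself, and they held starts of 334 genes, of 33887 annotated. Of these genes, 267 were protein-coding, 29 pseudogenes, 17 processed transcripts, 16 lincRNAs, 4 snoRNAs and 1 an snRNA. For 56 of the 267 protein-coding genes (21.0%), another annotated start lay in a common interval, so the B6-specific interval was at an additional start of a gene marked in both strains. Among the 20 widest intervals with a start, 10 held the start of a protein-coding gene, and the rest were at processed transcripts and pseudogenes.

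The named protein-coding genes among them have varied known roles. On chromosome 4 these were Acer2, an alkaline ceramidase (4360 bp wide, chr4:86575097-86579456), AU040320 (2810 bp), Sdc3, a heparan sulfate proteoglycan of the syndecan family (1918 bp), and Runx3, a runt-domain transcription factor (1297 bp). Elsewhere they were Pkd1l2 of the polycystin family on chromosome 8 (1952 bp), 2510049J12Rik on chromosome 6 (1645 bp), Sec14l3, a lipid-binding protein, on chromosome 11 (1546 bp), Magee2 of the melanoma antigen family on the X chromosome (1316 bp), Anp32a, an acidic nuclear phosphoprotein, on chromosome 9 (1278 bp) and Oca2, a melanosome membrane protein needed for pigmentation, on chromosome 7 (1233 bp). Magee2 was the one gene of the 20 with a CpG-rich centre. Gm12973 and the pseudogene Gm6551 had a Dom2 match in the central 400 bp, with scores of 17.3 and 20.2. Both counts are near the shares over all H3K4me3-only intervals, 4.43% with a CpG-rich centre and 8.81% with a Dom2 match. The nearest common interval was 117075 bp from the Runx3 interval and 211260 bp from the Magee2 interval.

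Over all annotated genes, 334 of 33887 (0.986%) had a start in an H3K4me3-only interval, a share at which lists of this size would hold few or no such genes. The lists examined held none, a count near that share: 0 of 33 annotated genes of meiotic prophase and recombination, 0 of 28 spermatid genes, 0 of 17 spermatogonial genes and 0 of 13 genes for H3K4 methyltransferases and demethylases. In the common intervals, starts of 28 of the 33, 27 of the 28, 3 of the 17 and 11 of the 13 were found, and the common intervals held starts of 10639 of all 33887 genes. The labelled cells were checked in the same way, with marker lists that share some genes with the lists above. Starts of 15 of 18 pachytene markers lay in common intervals, as did those of 2 of 11 Sertoli markers, 0 of 8 Leydig markers, 0 of 7 peritubular and vascular markers and 0 of 7 blood markers. Markers with a start in an H3K4me3-only interval numbered 0, which is also near the share over all genes.

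Many H3K4me3-only intervals lay beside H3K4me3 shared by both strains. A common interval was within 1 kb of 1279 of them (27.0%, interval 25.7 to 28.2), against 130 hotspot intervals (2.13%) and 2620 RJ2 H3K4me3-only intervals (23.3%). The difference was 24.8 points from hotspot intervals (23.5 to 26.1) and 3.63 points from the RJ2 set (2.16 to 5.13). The median distance to a common interval was 12128 bp, against 31024 bp for hotspot intervals. An RJ2-specific interval was within 1 kb of 305 (6.43%), against 126 hotspot intervals (2.07%), a difference of 4.36 points (3.59 to 5.16), and a B6 hotspot interval was within 1 kb of 82 (1.73%).

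Taken in turn, each interval counted once, 865 (18.2%) had the centre within 1 kb of a start and 943 more (19.9%) lay beside a common interval. Another 107 (2.26%) lay over the outer part of a B6 DMC1 interval or within 1 kb of a hotspot interval, and 248 more (5.23%) held a Dom2 match. That left 2582 intervals (54.4%) with none of these features, of which 59.2% were intergenic and 4.88% held a Cst match. This remainder can include intervals that hold a start far from their centre, such as that of 4933427I22Rik, 1108 bp from it. In the RJ2 set 7188 intervals (64.0%) had none of these B6 features, and 15.4% of them held a Cst match. Among the 107 beside a break site, 16.8% held a Dom2 match. Intervals away from promoters, CpG-rich sequence and common intervals were also read on the chromosomes not learned on. A Dom2 match was found in 136 of 1469 such H3K4me3-only intervals (9.26%) and in 4.71% of such RJ2 H3K4me3-only intervals, a difference of 4.55 points (2.98 to 6.27).

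Chromosomes differed in how many of their B6-specific intervals were H3K4me3-only. The share was 36.9% on chromosome 1 (283 of 766, interval 33.5 to 40.5) and 37.2% on chromosome 12, and it was 51.7% on chromosome 4 (342 of 662, 47.8 to 55.5), 53.0% on the X chromosome (248 of 468, 48.4 to 57.6) and 55.3% on chromosome 17 (250 of 452, 50.6 to 60.0). In RJ2 the share of H3K4me3-only intervals was 42.7% on chromosome 4, 41.0% on the X chromosome and 53.0% on chromosome 17. Chromosomes were singled out here after their values were seen. The Y chromosome had only 6 B6-specific intervals, 4 of them H3K4me3-only.

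**Figure D4:**
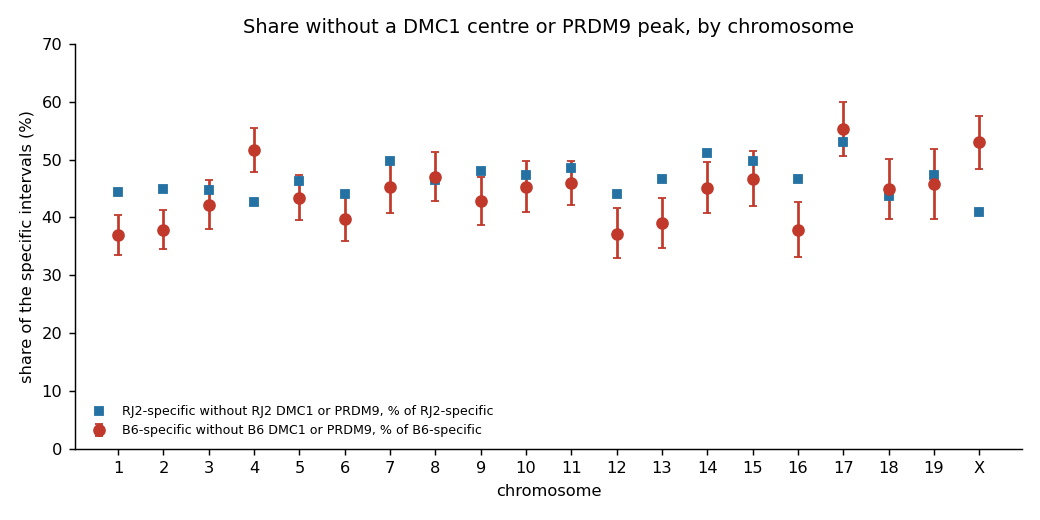
Share of strain-specific H3K4me3 intervals without a DMC1 centre or PRDM9 peak (y axis, percent) on each chromosome (x axis, Y left out); circles are B6 with 95% exact intervals and squares are RJ2 with the rule applied to RJ2 lists. Chromosomes 4, 17 and X have the highest B6 shares, 51.7%, 55.3% and 53.0%, and on 4 and X the RJ2 square lies below the B6 interval.

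The X chromosome, which has no homologue over most of its length in male meiosis and is silenced at pachytene, held 5.23% of the H3K4me3-only intervals (interval 4.61 to 5.90). It held 3.61% of hotspot intervals, 2.88% of RJ2 H3K4me3-only intervals and 3.47% of common intervals. The differences were 1.61 points (0.836 to 2.42), 2.34 points (1.66 to 3.07) and 1.75 points (1.13 to 2.44).

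The first 40 Mb of chromosome 17, which hold Prdm9 and with it a part of the segment introduced into RJ2, contained 155 H3K4me3-only intervals (3.27%) and 90 hotspot intervals (1.48%), a difference of 1.79 points (1.21 to 2.40). The RJ2 H3K4me3-only share there was 2.33%, 0.934 points lower (0.380 to 1.54), and the common share 2.20%. In windows of 5 Mb the counts were 4, 22, 24, 22, 29, 22, 22 and 10 from the start of the chromosome, and those of the hotspot intervals 5, 16, 18, 6, 7, 16, 18 and 4. Between 15 and 25 Mb the H3K4me3-only intervals thus numbered 22 and 29 against 6 and 7 hotspot intervals.

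Across 504 autosomal windows of 5 Mb the median was 8 H3K4me3-only intervals and the highest 34, on chromosome 4 from 130 to 135 Mb. The next were 33 on chromosome 5 from 115 to 120 Mb and 32 on chromosome 11 from 100 to 105 Mb. Counts of H3K4me3-only intervals followed those of common intervals (Spearman's rho 0.72) and of genes (0.58) across these windows. For RJ2 H3K4me3-only intervals rho was 0.79 with common intervals and 0.58 with genes, so this was not particular to the B6 set. For B6 hotspot intervals rho was 0.46 with common intervals and 0.36 with genes. These values describe neighbouring windows of 1 genome that share gene and base content, and they carry no test.

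The widest H3K4me3-only intervals were gathered on a few chromosomes. Of the 48 wider than 2000 bp, 22 (45.8%) were on chromosome 4, 9 on chromosome 11 and 5 on chromosome 17, so that these 3 chromosomes held 36 of them. They held 902 of all 4745 H3K4me3-only intervals (19.0%), 12 of 59 hotspot intervals of that width (20.3%), 8 of 23 RJ2 H3K4me3-only intervals (34.8%) and 16.0% of the 10889 common intervals of that width. No H3K4me3-only interval of that width lay on chromosomes 1, 2, 3, 5, 7, 9, 10, 12, 14, 16, 18, 19 or X, although chromosome 2 carried 316 H3K4me3-only intervals and chromosome 5 carried 285. On chromosome 4, 18 of the 22 lay between 125 and 145 Mb, where 120 H3K4me3-only intervals had a median width of 617.5 bp. In that stretch, 1 of 136 RJ2 H3K4me3-only, 4 of 65 B6 hotspot and 4 of 128 RJ2 hotspot intervals were over 2000 bp. The 65 B6 hotspot intervals had a median width of 1138 bp. On chromosome 11, 4 lay between 50 and 55 Mb, among 30 H3K4me3-only intervals. In that stretch 0 of 18 B6 hotspot, 2 of 46 RJ2 H3K4me3-only and 5 of 37 RJ2 hotspot intervals were over 2000 bp. The width limit and the stretches were chosen after the values were seen and are given with no test.

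Of the 5 widest of all, 4 were on chromosomes 4 and 11 and 1 on chromosome 13. They were chr4:142506676-142513296 (6621 bp, intergenic, 232489 bp from the nearest start, of Gm13038), chr4:128609609-128616132 (6524 bp, at the start of Gm15904 in the Adc locus) and chr11:54898572-54904654 (6083 bp, intergenic, 9980 bp from the start of Ccdc69). The others were chr13:20253654-20258821 (5168 bp, in an intron of Elmo1, which codes for an engulfment and motility protein) and chr11:52391092-52396192 (5101 bp, intergenic). None of these 5 had a Dom2 match in the central 400 bp or a CpG-rich central 200 bp, a small part of intervals of this width. Over all H3K4me3-only intervals the shares were 8.81% and 4.43%, at which 5 intervals would hold few or none. The 5 lay 5179 to 138796 bp from a B6 DMC1 interval. Of the 48 wide intervals, 24 were intergenic, 14 intronic and 7 within 1 kb of a start, 0 had a CpG-rich centre, 2 held a Dom2 match and 1 lay within 5 kb of a B6 DMC1 interval. Among the 59 hotspot intervals of that width, 29 held a Dom2 match. In both sets matches were read in the central 400 bp only. The part of the strain background, C57BL/6 against C57BL/10, in these wide intervals was not tested.

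**Figure D5:**
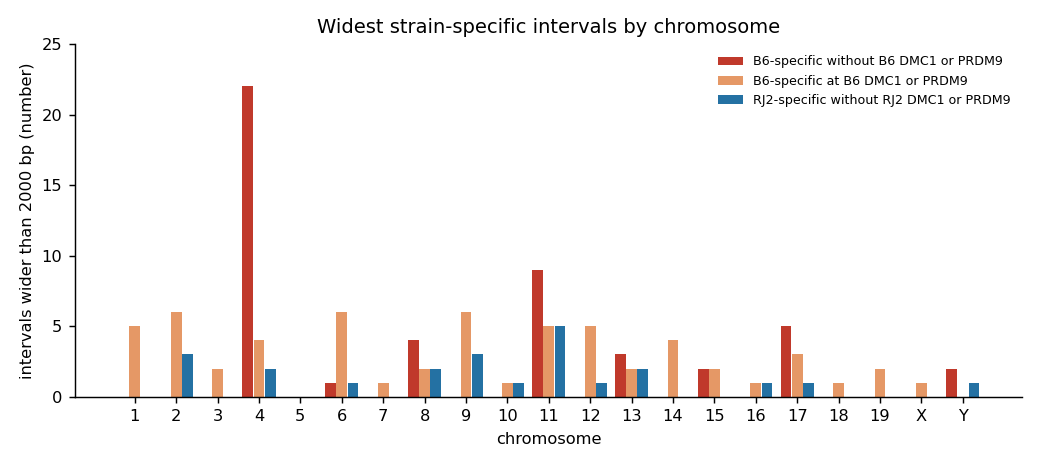
Number of strain-specific H3K4me3 intervals wider than 2000 bp (y axis) on each chromosome (x axis) for 3 sets. The B6 H3K4me3-only intervals have 22 on chromosome 4 and 9 on chromosome 11, while the B6 hotspot intervals have at most 6 on any chromosome.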

How the data were processed

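ChIP-seq peak lists of PRDM9, DMC1 and H3K4me3 from mouse testis were used on build mm9. The deposited values are interval positions that the authors obtained by mapping reads, calling peaks with MACS and pooling replicates for DMC1 and PRDM9, and they carry no other unit such as a score or read count. The authors had removed PRDM9 peaks seen in Prdm9KO mice or shared by both strains, and had intersected H3K4me3 calls from 3 sets of reads of 1 library per strain. Overlaps, distances to GENCODE vM1 starts, composition and matrices were computed from the lists and the NCBIM37 genome with Python 3.11.15, numpy 2.4.6, scipy 1.17.1 and pysam 0.24.0, and all functions were tested on simulated data. Matrices had 20 positions and were refined in 3 rounds from the most enriched 8-base word. Named intervals were the 5 widest, the 20 widest with a start, the 6 best Dom2 scores outside chromosome 18, those at the edge of the rule and the densest windows. The intervals, lists and rules were chosen with earlier results of these data known. H3K36me3 libraries were not analysed here, and depth was not given in the lists.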

Additional observations from a re-analysis of the deposited data

How the results depend on the processing

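Of 28 other settings 16 left a value within its 95% interval or within 1.5 times the count. The number of B6 H3K4me3-only intervals ranged from 4624 to 4795 over 5 other rules of overlap. The share within 1 kb of a start became 12.6% at 500 bp, 24.7% at 2 kb and 14.4% in the widest 50% of the intervals. The share with a CpG-rich centre became 2.78% in the widest 50%. The Dom2 share became 2.63% at the threshold that 1% of moved windows reach, 7.90% in the central 200 bp and 10.2% in the widest 50%, and the Cst share 0.948% at the 1% threshold. The count over Spo11KO PRDM9 peaks became 18 with a margin of 500 bp. The share beside a common interval became 19.5% at 500 bp, 32.2% at 2 kb and 22.8% in the widest 50%. Leaving out chromosomes 4, 11 and 17, an alternative chosen after seeing the data, moved the share on the X chromosome to 6.45%, since fewer intervals were counted, and kept the other 5 values within their ranges. No paired analysis was possible because the lists hold pooled peaks and carry no replicate numbers. With 1 H3K4me3 library per strain and no read counts, neither the spread between animals nor the depth limit of an interval could be measured.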
